A study of Mus musculus with 16 samples.

Results

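The genes described here are the numbered mouse zinc finger genes that lie on chromosomes 2, 4, 7, 12, 13 and 17, where many of them stand in tandem clusters. They were taken as every gene whose symbol is Zfp followed by a number and whose row in the gene table lies on one of these 6 chromosomes, leaving out Zfp352, which gave 225 of 56941 genes. Chromosome 2 holds 25 of them, chromosome 4 holds 29, chromosome 7 holds 92, chromosome 12 holds 5, chromosome 13 holds 33 and chromosome 17 holds 41. Chromatin-associated RNA, the RNA that stays with chromatin when cells are fractionated, was read out in mouse embryonic stem cells of the E14TG2a line that ectopically expressed a histone demethylase. The groups were IDR-deleted KDM4A, full-length KDM4A, IDR-deleted KDM4B, full-length KDM4B, IDR-deleted KDM6A, full-length KDM6A, IDR-deleted KDM6B and full-length KDM6B, with 2 libraries each and 16 in all. KDM4A and KDM4B remove methyl groups from H3K9 and H3K36, and KDM6A and KDM6B from H3K27. All groups grew in LIF (1000 U/ml), the MEK inhibitor PD0325901 (1 µM) and the GSK3 inhibitor CHIR99021 (3 µM), and all carried a construct, so every comparison sets a protein without its intrinsically disordered region (IDR) against the same protein with it. The titles write del-cIDR and other labels del-IDR, and neither says which residues were removed or whether a line was a clone.

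Most numbered Zfp genes encode proteins with arrays of C2H2 zinc fingers that read DNA, and many of these also carry a KRAB domain, which recruits the corepressor TRIM28 and through it the H3K9 methyltransferase SETDB1. In mouse embryonic stem cells such proteins are known for silencing endogenous retroviruses, and clusters of them, among others on chromosomes 2, 4 and 13, arose by repeated duplication. Their genes are themselves known to lie in domains rich in H3K9 methylation, a substrate of the KDM4 enzymes.

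Libraries held 32739117 to 54890756 gene reads, of which the 225 genes took 0.930% to 1.21%. The 8 embryonic stem cell markers were detected in every library, at 1790 to 2693 CPM in sum, where CPM is the read count scaled to the library size after TMM normalization. Single markers differed between groups. Mean Pou5f1 ran from 53.8 CPM with full-length KDM6A to 228 CPM with IDR-deleted KDM6B. Mean Dppa5a ran from 53.9 CPM with full-length KDM4B to 372 CPM with IDR-deleted KDM6B. Of the 8, 3 rose and 4 fell in KDM4A, 2 and 5 in KDM4B, 3 and 1 in KDM6A, and 3 and 1 in KDM6B. Of 6 fibroblast markers, Col3a1, Postn and Lox reached at most 0.37 CPM and Col1a2 0.96 CPM, while Col1a1 stood at 1.13 to 4.66 CPM and Mmp2 at 7.84 to 52.6 CPM. Their sum was 58.1 and 52.2 CPM with IDR-deleted KDM4A, against 17.3 and 16.3 CPM with full-length KDM4A, and 24.8 and 23.6 CPM with IDR-deleted KDM4B, against 11.6 and 10.1 CPM with full-length KDM4B. It ran from 15.4 to 20.2 CPM in the KDM6A libraries and from 35.4 to 42.6 CPM in the KDM6B libraries. Mmp2 and Col1a1 rose in KDM4A. In KDM4B Mmp2 rose and Lox, which was near 0, fell. Mmp2 also rose in KDM6B. The part of these markers in the changes below was not tested. Kdm6a stood at 435 and 415 CPM with IDR-deleted KDM6A, against 441 and 425 CPM with full-length KDM6A, and at 95.7 to 156 CPM in the other 12 libraries, so it stood apart in its own libraries. Kdm4a had 300 and 292 CPM with IDR-deleted KDM4A, against 217 and 206 CPM with full-length KDM4A, but 250 to 272 CPM in the KDM6B libraries. Kdm4b and Kdm6b did not set their own libraries apart, at 85.4 to 103 CPM for Kdm4b in the KDM4B libraries and 93.8 to 103 CPM in the KDM6B libraries, and at 78.1 to 96.4 CPM for Kdm6b in the KDM6B libraries and 69.1 to 81.4 CPM in the others. The counts thus set the KDM6A libraries apart from the others, but do not tell IDR-deleted from full-length KDM6A. They leave the labels of the KDM4A, KDM4B and KDM6B libraries unchecked, since Kdm4a with IDR-deleted KDM4A was only somewhat above the KDM6B libraries. Changes are relative to all gene reads of a library: scaling by the ERCC spike-in RNAs put the median log2 change of all genes at -0.70 for KDM4A, -0.18 for KDM4B, -0.21 for KDM6A and -0.38 for KDM6B. Separate cultures are not stated for the 2 libraries of a group, so p-values measure the spread between these libraries.

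All but 4 of the 225 genes had enough reads to be tested. Zfp264, Zfp935 and Zfp939 had no read in any library and Zfp708 had 25 reads in all. A mean of at least 1 CPM was reached by 205 genes. A coding sequence could be translated for 217, and of those 149 held a KRAB motif and 68 did not. The median number of C2H2 motifs was 11 and the highest 33, in Zfp462. Zfp36, tristetraprolin, which binds AU-rich mRNAs through CCCH fingers, is among the 6 with no C2H2 motif. By a gap of at most 500 kb between neighbours, 156 genes formed 14 clusters of 5 or more and 69 stood outside them. In what follows a cluster is named by its chromosome and a letter in order along it.

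Levels per exon length differed between clusters by over an order of magnitude. Median CPM per kb was 30.2 in cluster 4-A and 21.1 in cluster 7-H, 7.12 in 7-G, 5.12 in 17-B, 2.74 in 13-A and 0.206 in 2-A, against 5.03 over all 221 tested genes. Zfp978 of cluster 4-A stood highest at 202 CPM per kb, followed by Zfp57 and Zfp990 at 144 each. Zfp57 maintains DNA methylation at imprinted loci. Of the 12 highest genes per length, 6 lie in cluster 4-A.

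Nearly all of these genes differed somewhere among the 8 groups: 210 of 221 passed the F test across groups (edgeR quasi-likelihood, adjusted p under 0.05), while the same test was passed by 75.8% of all genes, by 87.6% of protein-coding genes and by 137 of the 144 tested Zfp genes on other chromosomes. Between the highest and the lowest group mean the median ratio was 1.81. IDR-deleted KDM4A held the lowest mean for 75 genes and the highest for 29. Full-length KDM4B held the highest mean for 55 genes and the lowest for 35, and IDR-deleted KDM6A the lowest for 52. These numbers were not set against those of all genes.

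With IDR-deleted KDM4A, falls outnumbered rises. "Rose" and "fell" mean higher or lower with the IDR-deleted protein at an adjusted p under 0.05, and values are log2 fold changes ± standard error. Of 221 genes, 63 rose (28.5%) and 98 fell (44.3%), where 24.6% of all genes rose and 25.9% fell; with ERCC scaling 12 rose and 171 fell. Among protein-coding genes 38.0% rose and 24.1% fell, and among the 144 Zfp genes of other chromosomes 53 rose and 43 fell. The median change was -0.17, against -0.048 over all genes. ERCC reads were 1.12% and 1.06% of gene reads with IDR-deleted KDM4A, against 0.781% and 0.800% with full-length KDM4A. Genes with any read numbered 34569 and 34227 with IDR-deleted KDM4A, against 36981 and 37960 with full-length KDM4A. Both IDR-deleted libraries also held fewer gene reads. The KDM6B libraries were at 1.15% to 1.55% and at 34635 to 35691 genes. The part of these differences in the falls was not tested. In bulk RNA such as this, fewer cells of a kind and less RNA per cell cannot be told apart.

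In the KDM4B comparison rises were slightly more frequent, 60 (27.1%) against 47 falls (21.3%), with a median of 0.062. Here 18.6% of all genes rose and 17.6% fell, and ERCC scaling turned the balance to 34 rises and 85 falls. KDM6A gave 29 rises (13.1%) and 33 falls (14.9%), where 8.3% of all genes rose and 8.65% fell, with ERCC scaling giving 5 and 101. KDM6B gave 32 rises (14.5%) and 17 falls (7.69%), where 9.89% of all genes rose and 10.7% fell, with ERCC scaling giving 4 and 143. Single libraries moved the KDM6 counts: without full-length KDM6A replicate 1 or 2 there were 14 falls or 18 rises. For KDM6B there were 6 falls without IDR-deleted replicate 1 and 8 without IDR-deleted replicate 2 or full-length replicate 1, and 21 rises without either IDR-deleted replicate and 19 without full-length replicate 2. Against protein-coding genes, of which 27.2% rose and 20.7% fell in KDM4B, 12.2% and 13.5% in KDM6A, and 15.3% and 9.98% in KDM6B, the zinc finger genes as a whole were close to the background outside KDM4A.

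Counts by chromosome can be read against the background shares above and depend on the scaling. On chromosome 4, IDR-deleted KDM4A had 4 rises and 20 falls among 29 genes and IDR-deleted KDM4B 3 rises and 16 falls, whereas IDR-deleted KDM6A had 8 rises and 1 fall and IDR-deleted KDM6B 14 rises and 0 falls. Chromosome 17 leaned the other way in part, with 13 rises and 3 falls of 41 for KDM4B and 1 rise and 9 falls for KDM6A, but 15 and 17 for KDM4A and 5 and 5 for KDM6B. Chromosome 13 had 11 and 11 of 31 for KDM4A, 9 and 7 for KDM4B, 3 and 8 for KDM6A, and 1 and 3 for KDM6B. On chromosome 7, with 90 tested genes, rises and falls numbered 26 and 35 for KDM4A, 27 and 16 for KDM4B, 14 and 9 for KDM6A, and 9 and 6 for KDM6B. Chromosome 2 gave 7 and 11 of 25, 8 and 3, 2 and 6, and 2 and 2 in the same order of demethylases. The 5 genes of chromosome 12 gave 0 and 4, 0 and 2, 1 and 0, and 1 and 1. With ERCC scaling falls outnumbered rises on every one of these chromosomes in every comparison, where the median of all genes was below 0 in each. Chromosome 4 then had 0 rises and 24 falls for KDM4A, 0 and 19 for KDM4B, 4 and 6 for KDM6A, and 1 and 9 for KDM6B, with KDM6 medians of -0.036 and -0.16. Those 2 medians were above the all-gene medians of -0.21 and -0.38. Chromosome 17 then had 9 rises and 11 falls for KDM4B and 0 and 24 for KDM6A.

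**Figure D1:**
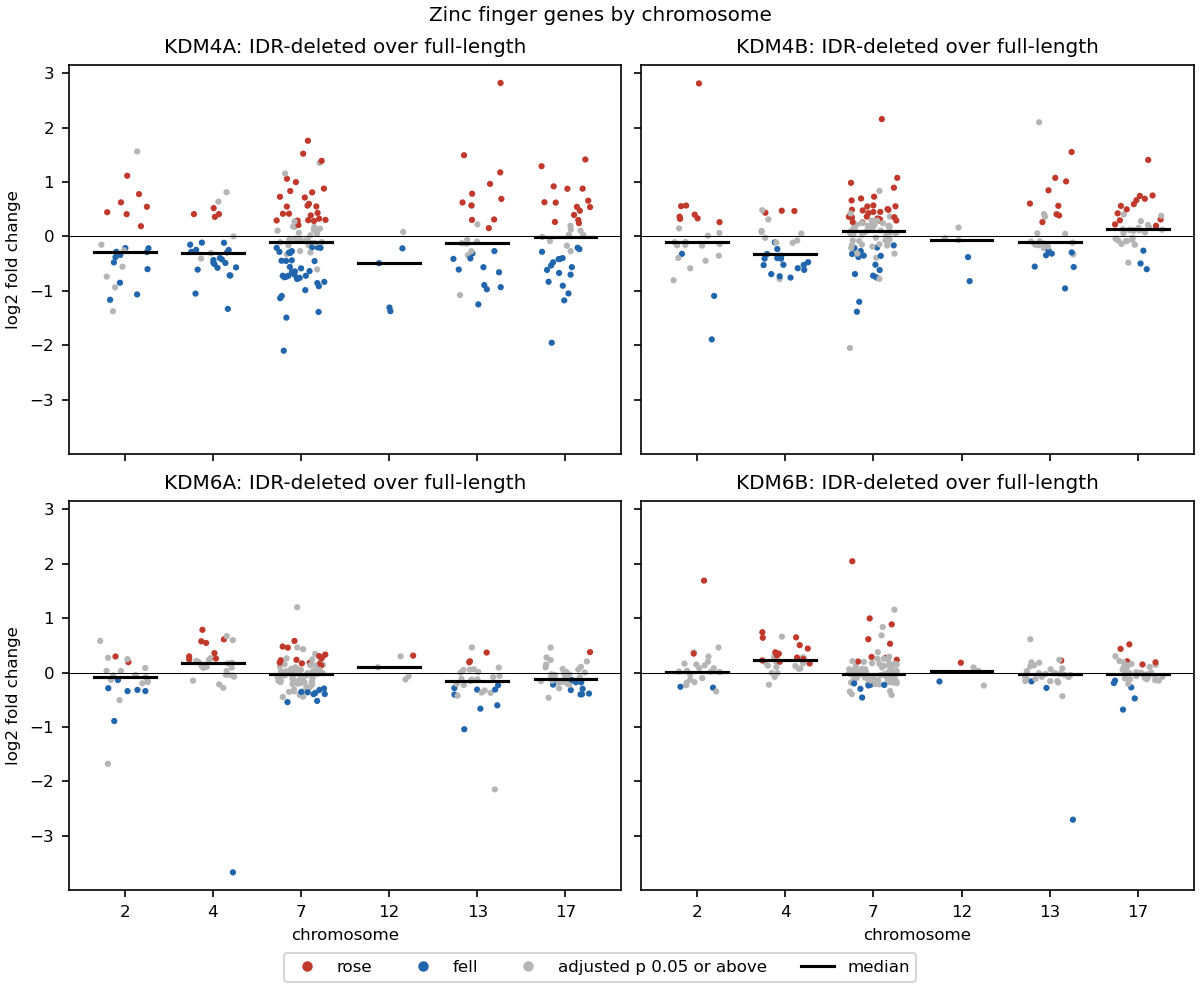
Log2 fold change (y axis) of the 221 tested zinc finger genes by chromosome (x axis), IDR-deleted over full-length, in 1 panel per demethylase; each point is 1 gene, red if it rose, blue if it fell and grey otherwise, and the bar is the median. On chromosome 4 the median lies at -0.31 for KDM4A and -0.32 for KDM4B but at 0.18 for KDM6A and 0.22 for KDM6B; with ERCC scaling the KDM6 medians were -0.036 and -0.16.

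Most calls on chromosome 4 lay in cluster 4-A, 18 genes within 2.695 Mb (GRCm39, chromosome 4, 145237329 to 147932823), of which 16 held a KRAB motif. Summed over the 18 genes, the level was 1733 and 1741 CPM with IDR-deleted KDM4A, against 2326 and 2300.4 CPM with full-length KDM4A. For KDM4B the sums were 2019.5 and 2092 CPM with IDR-deleted KDM4B, against 2825 and 2766 CPM with full-length KDM4B. Both libraries with the IDR-deleted protein were below both with the full-length one in each case. KDM6A turned the order round, with 2291 and 2402 CPM with IDR-deleted KDM6A, against 1989 and 1898 CPM with full-length KDM6A. So did KDM6B, with 2039.6 and 2049 CPM with IDR-deleted KDM6B, against 1705 and 1516 CPM with full-length KDM6B. Full-length KDM4B had the highest mean for 13 of the 18 genes, and IDR-deleted KDM4A or full-length KDM6B the lowest for 9 and 8 of them.

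Gene by gene, 16 of 18 fell and 0 rose in KDM4A (median -0.46), and 14 fell and 0 rose in KDM4B (median -0.41). In KDM6A 7 rose and 0 fell (median 0.24), and in KDM6B 14 rose and 0 fell (median 0.29). With ERCC scaling the falls numbered 18 and 15 in the KDM4 comparisons, whereas the KDM6 rises shrank to 3 rises and 2 falls in KDM6A and to 1 rise and 4 falls in KDM6B. Relative to that shift the cluster stayed above the median of all genes, at 0.022 against -0.21 in KDM6A and -0.091 against -0.38 in KDM6B. The KDM6B count was 8 of 18 without IDR-deleted KDM6B replicate 2 and 9 without full-length KDM6B replicate 2. The KDM6A count was 11 in a fit of the 4 KDM6A libraries alone and 13 with no filter on low counts.

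**Figure D2:**
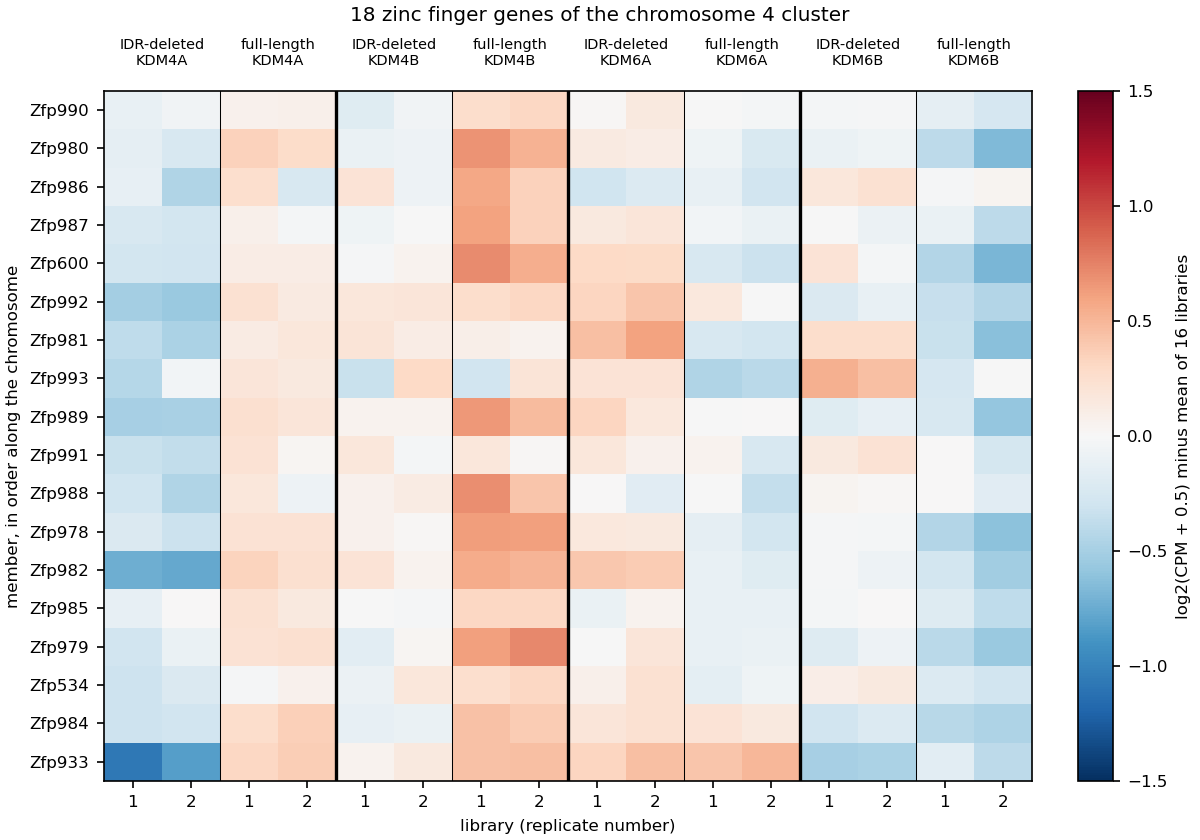
Heat map of log2(CPM + 0.5) minus the mean of the 16 libraries (colour scale) for the 18 genes of cluster 4-A (rows, in order along the chromosome) in every library (columns, 2 per group, IDR-deleted left of full-length). The full-length KDM4B columns are the reddest and the IDR-deleted KDM4A and full-length KDM6B columns the bluest for most genes.

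Zfp982 carried the pattern in all 4 comparisons. Zfp982 (ENSMUSG00000078496, chromosome 4, 147576874 to 147597943, plus strand) had 30.4 and 29.7 CPM with IDR-deleted KDM4A, against 64.4 and 60.2 CPM with full-length KDM4A, a change of -1.05 ± 0.067 (adjusted p = 3.23e-16). The values were 59.1 and 53.1 CPM with IDR-deleted KDM4B, against 75 and 72.8 CPM with full-length KDM4B, or -0.40 ± 0.065 (adjusted p = 4.42e-06). In the KDM6 comparisons it rose, with 67.6 and 66.8 CPM with IDR-deleted KDM6A, against 47.1 and 44.99 CPM with full-length KDM6A (0.54 ± 0.065, adjusted p = 5.22e-08), and 50.6 and 48.4 CPM with IDR-deleted KDM6B, against 42.1 and 35.5 CPM with full-length KDM6B (0.35 ± 0.066, adjusted p = 0.000102). No 2 groups of these pairs overlapped.

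The same 4 directions were passed by Zfp534, Zfp600, Zfp978 and Zfp989 in the cluster, and outside it by Zfp975 of cluster 7-H, Zfp934 on chromosome 13 and Zfp758 on chromosome 17. That is 8 of 221, where 0.576% of all genes fell in both KDM4 comparisons and rose in both KDM6 comparisons. Zfp600 had 151 and 159 CPM with IDR-deleted KDM4B, against 249.7 and 224 CPM with full-length KDM4B (-0.61 ± 0.091, adjusted p = 0.000355). With KDM6B it stood at 176 and 149 CPM with IDR-deleted KDM6B, against 113 and 94.9 CPM with full-length KDM6B (0.65 ± 0.092, adjusted p = 0.000605). Zfp978, the most abundant per length, had 217 and 203 CPM with IDR-deleted KDM4A, against 293 and 295 CPM with full-length KDM4A (-0.49 ± 0.047, adjusted p = 1e-10).

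Zfp981 and Zfp933 had other patterns. Zfp981 (ENSMUSG00000056300, chromosome 4, 146586484 to 146623852, plus strand) gave the largest KDM6 rises on chromosome 4, with 191 and 211 CPM with IDR-deleted KDM6A, against 118 and 115 CPM with full-length KDM6A (0.79 ± 0.074, adjusted p = 2.3e-06) and 168 and 167 CPM with IDR-deleted KDM6B, against 110.4 and 90.2 CPM with full-length KDM6B (0.74 ± 0.074, adjusted p = 4.14e-06). It fell in KDM4A, at -0.58 ± 0.074 (adjusted p = 9.39e-06), but did not pass in KDM4B at 0.082 ± 0.073 (adjusted p = 0.436). Zfp933 (ENSMUSG00000059423, chromosome 4, 147907443 to 147932823, minus strand), at the far end of the cluster, had the largest KDM4A fall there, with 8.91 and 10.7 CPM with IDR-deleted KDM4A, against 24.1 and 24.99 CPM with full-length KDM4A (-1.33 ± 0.096, adjusted p = 8.32e-15). It passed in neither KDM6 comparison, at -0.076 ± 0.089 (adjusted p = 0.667) in KDM6A and -0.22 ± 0.092 (adjusted p = 0.0816) in KDM6B.

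Promoters are shown because the genes of cluster 4-A moved together. RefSeq (GRCm38.p6) gives a promoter window, from 250 bases before to 50 after the start, for 192 of the 225 genes and for 12 of the 18 in the cluster. The letters AGGAGTGGCTCTGAGGAACCA, searched on both strands, stand in 8 of the 12 (Zfp534, Zfp600, Zfp979, Zfp980, Zfp982, Zfp985, Zfp987 and Zfp988). Of 27025 genes with a window, 9 hold it (0.0333%), the other one being Rex2 on chromosome 4. The run is 21 bases long and was found by searching these promoters, so its frequency in them is a description. Below it is in capitals in Zfp534 and Zfp600, while Zfp981 and Zfp933 lack it as spelled.
Zfp534 (chr4:147702582-147702881, minus strand, 3 CG): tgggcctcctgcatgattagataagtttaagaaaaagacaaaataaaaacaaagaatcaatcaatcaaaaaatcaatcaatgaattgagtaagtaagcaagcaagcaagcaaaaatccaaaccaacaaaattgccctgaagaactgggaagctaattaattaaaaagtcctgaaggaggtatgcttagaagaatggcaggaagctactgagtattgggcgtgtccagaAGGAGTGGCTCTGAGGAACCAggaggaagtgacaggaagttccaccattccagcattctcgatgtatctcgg
Zfp600 (chr4:146156577-146156876, plus strand, 5 CG): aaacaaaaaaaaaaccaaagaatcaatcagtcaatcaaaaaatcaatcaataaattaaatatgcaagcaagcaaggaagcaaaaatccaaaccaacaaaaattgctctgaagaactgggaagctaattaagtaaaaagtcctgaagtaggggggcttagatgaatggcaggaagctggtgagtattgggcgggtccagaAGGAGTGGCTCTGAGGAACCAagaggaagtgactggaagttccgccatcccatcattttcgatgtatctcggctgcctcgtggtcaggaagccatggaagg
Zfp981 (chr4:146514670-146514969, plus strand, 4 CG): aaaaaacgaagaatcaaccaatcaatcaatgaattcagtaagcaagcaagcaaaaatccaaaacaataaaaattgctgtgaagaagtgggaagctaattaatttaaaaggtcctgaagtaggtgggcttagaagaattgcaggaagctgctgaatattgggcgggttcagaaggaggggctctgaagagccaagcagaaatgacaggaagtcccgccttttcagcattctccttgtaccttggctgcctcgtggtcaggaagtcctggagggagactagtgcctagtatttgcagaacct
Zfp933 (chr4:147848369-147848668, minus strand, 9 CG): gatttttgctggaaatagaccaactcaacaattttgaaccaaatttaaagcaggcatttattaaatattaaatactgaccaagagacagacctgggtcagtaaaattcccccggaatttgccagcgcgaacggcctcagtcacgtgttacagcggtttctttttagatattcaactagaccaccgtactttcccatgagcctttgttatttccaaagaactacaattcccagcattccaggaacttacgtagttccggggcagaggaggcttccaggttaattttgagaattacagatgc
The 8 genes with the run all fell for KDM4A and for KDM4B (medians -0.41 and -0.50), and 3 rose for KDM6A and 6 for KDM6B (medians 0.25 and 0.35). Of the 4 without it (Zfp933, Zfp981, Zfp984 and Zfp993), 3 fell for KDM4A and 2 for KDM4B, 1 rose for KDM6A and 3 for KDM6B, with medians of -0.59, -0.15, 0.35 and 0.42 in that order. Promoters of the cluster held few CG dinucleotides: the median was 4.5 in the 300 bases, against 12 over the 192 zinc finger genes and 8 over all genes. Single genes of the cluster held 3 to 16, and the median was also low in cluster 2-A, at 5 over 5 genes. None of the 18 starts fell inside a copy of the repeat table, while 8 of 219 protein-coding zinc finger genes (3.65%) and 6.83% of all protein-coding genes began in one.

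Near-identical copies limit what can be said of single genes in this cluster, since reads that match several places score low in mapping quality and those under 30 were not counted. Of its genes, 8 shared at least 80% of their protein with another zinc finger gene of these chromosomes. Zfp991 and Zfp992 are the closest pair, with 8 differing bases in 1719 of coding sequence (GENCODE M21) and a stretch of 484 bases without a difference. They are shown over coding bases 113 to 187, with the differing base in capitals, because reads over such stretches are hard to place:
Zfp991: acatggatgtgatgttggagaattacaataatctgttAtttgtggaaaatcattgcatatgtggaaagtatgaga
Zfp992: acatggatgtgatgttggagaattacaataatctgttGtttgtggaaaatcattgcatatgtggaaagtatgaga
Zfp992 nevertheless stood at 28.5 CPM per kb and Zfp991 at 11.1. Both fell in KDM4A, Zfp992 at -0.72 ± 0.052 and Zfp991 at -0.48 ± 0.10. The C2H2 motif shared by the family is shown by the first finger of Zfp981 (coding bases 721 to 783), with the codons of the zinc-binding cysteines and histidines in capitals.
Zfp981: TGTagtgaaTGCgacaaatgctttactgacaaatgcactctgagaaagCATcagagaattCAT

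Genes that start inside the cluster but are not among the 225 moved with its zinc finger genes. They were set apart by symbol alone and include Znf41-ps, and Rex2, which holds the promoter run. How many of them are copies of the same family was not tested. Of the 57 such genes tested, 1 rose and 35 fell for KDM4A, 2 and 18 for KDM4B, 18 and 0 for KDM6A, and 12 and 3 for KDM6B. In the 1 Mb before the cluster 2 of 16 genes rose and 10 fell in KDM4A, whereas in the 1 Mb after it 10 of 35 rose and 6 fell. In KDM4B these numbers were 4 and 3 before and 7 and 4 after the cluster. KDM6A gave 5 rises and 2 falls before and 2 and 3 after it, and KDM6B gave 3 and 1 before and 6 and 1 after.

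**Figure D3:**
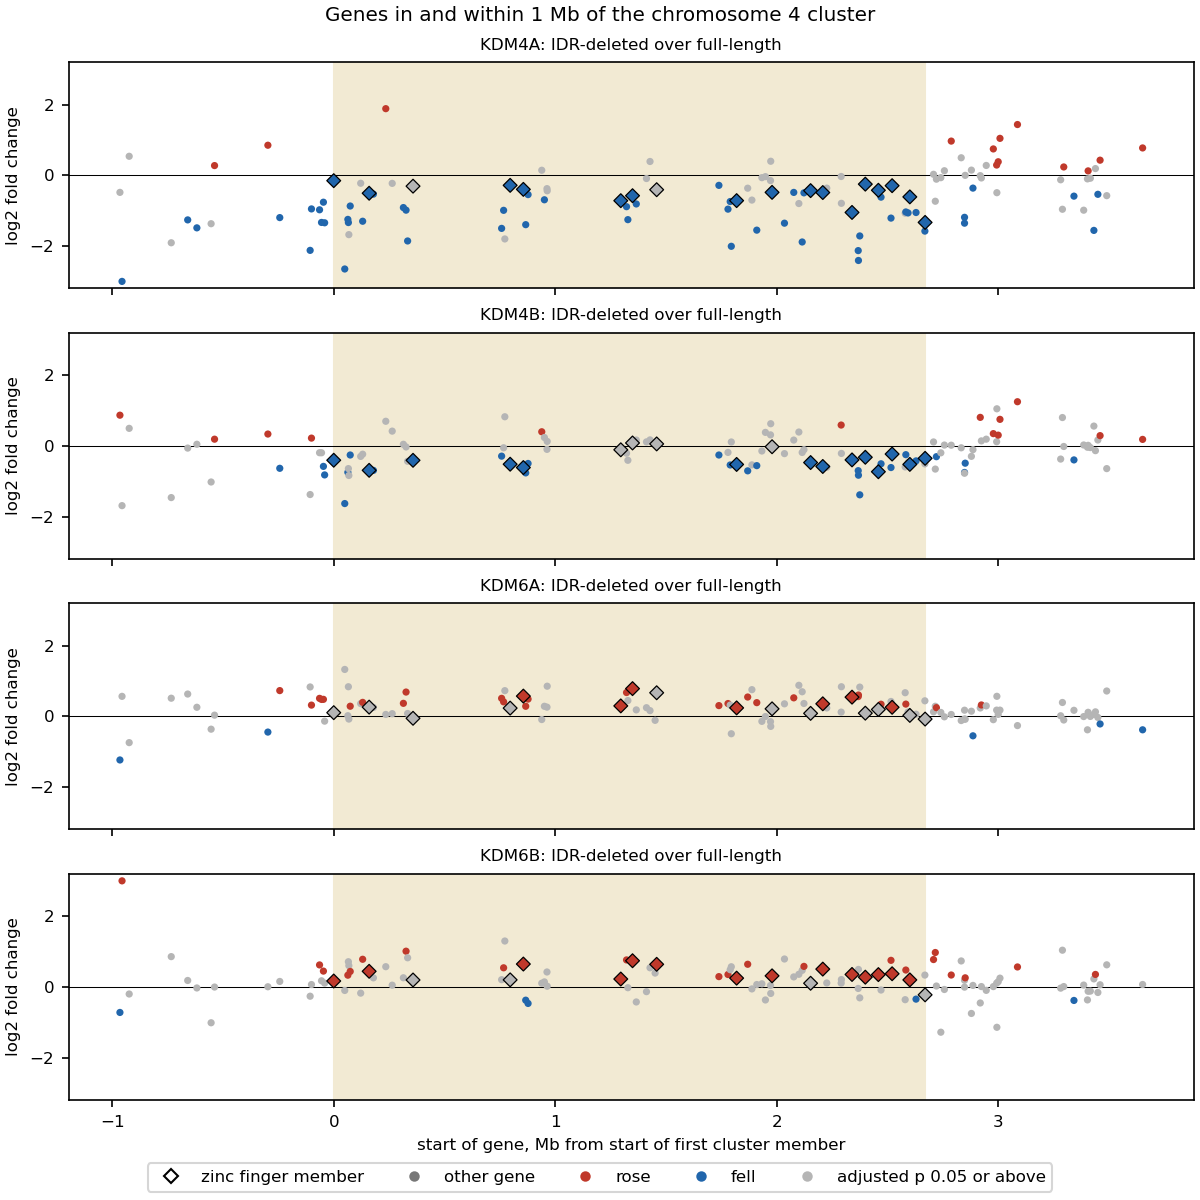
Log2 fold change (y axis, values beyond 3 or -3 drawn at 3 or -3) of all tested genes in and within 1 Mb of cluster 4-A against the distance of their start from the start of the first zinc finger gene (x axis, Mb), in 1 panel per demethylase; diamonds are zinc finger genes, circles other genes, red rose, blue fell and grey neither, and the shading runs from the first to the last zinc finger gene's start. Inside the shading 16 of 18 diamonds are blue in KDM4A and 14 are red in KDM6B. Circles are all genes outside the 225, set apart by symbol alone, and include Znf41-ps, a zinc finger pseudogene by its symbol.

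Reads over repeat copies inside introns that touch no exon gave a second measure for 186 of the genes and for all 18 of the cluster. A read pair that spans an exon and such a copy can count in both measures, and how many do was not tested. By it 17 of the 18 fell and 0 rose in KDM4A (median -0.84), 13 fell and 2 rose in KDM4B (median -0.29), and 9 rose and 0 fell in KDM6A (median 0.25). The all-gene medians of this measure were -0.23, -0.046 and 0.023. In these comparisons 18.3%, 17.1% and 11.1% of all genes rose by it, and 37.4%, 24.4% and 8.27% fell. The KDM6B rise was not seen: 0 rose and 12 fell, with a median of -0.25 where the median of all genes was -0.23 and 35.5% of genes fell and 5.21% rose. Repeats outside genes in the same region had 857 and 868 CPM, here relative to all gene reads, with IDR-deleted KDM4A, against 1696 and 1671 CPM with full-length KDM4A, a ratio of 0.512, whereas the ratio over all repeats outside genes was 0.824. The ratios were 0.824 in the region and 0.852 overall in KDM4B, 1.28 and 1.09 in KDM6A, and 0.914 and 1.00 in KDM6B.

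Markers of 2-cell-like cells, a rare state of these cultures with Zscan4 expression, moved with the cluster in part. Of 7 markers 6 fell for KDM4A, 5 for KDM4B and 5 for KDM6A, with 0 rises, and 2 rose and 0 fell for KDM6B. Their summed level was 67.6 and 69.2 CPM with IDR-deleted KDM4A, against 244 and 228 CPM with full-length KDM4A, and 94.4 and 89.5 CPM with IDR-deleted KDM4B, against 253 and 245 CPM with full-length KDM4B. It was 136 and 135 CPM with IDR-deleted KDM6A, against 171 and 166 CPM with full-length KDM6A, and 49.1 and 49.1 CPM with IDR-deleted KDM6B, against 43.3 and 42.4 CPM with full-length KDM6B. No marker of the list was at 0 in any library. In KDM6A the markers fell while the cluster rose. Primitive endoderm markers rose, 5 of 6 in KDM4A and 3 of 6 in KDM4B, to sums of 30.5 to 31.2 CPM with IDR-deleted KDM4A, against 10.3 to 10.5 CPM with full-length KDM4A, and Foxa2 was at 0 in some libraries. In KDM6A and KDM6B 0 of the 6 passed, with sums of 7.95 to 10.5 CPM in the KDM6A libraries and 18.7 to 23.4 CPM in the KDM6B libraries. Other lineages moved too. Of 4 tested trophectoderm markers 3 rose in KDM4A, 2 in KDM4B and 1 in KDM6A, and 1 fell in KDM6B. Of 5 neural markers 2 rose in KDM4A, 3 fell in KDM4B, 1 rose in KDM6A and 3 rose in KDM6B. The part of any of these markers in the changes of the zinc finger genes was not tested.

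Cluster 7-H, 9 genes on chromosome 7 (42122810 to 43267709), moved like cluster 4-A. In KDM4A 1 rose and 6 fell, in KDM4B 0 and 7, in KDM6A 4 and 0, and in KDM6B 4 and 0; with ERCC scaling these were 0 and 9, 0 and 7, 1 and 3, and 1 and 6. Zfp819 (ENSMUSG00000055102, chromosome 7, 43256593 to 43267709, plus strand) gave the largest falls of chromosome 7 in both KDM4 comparisons among genes of at least 1 CPM whose groups did not overlap, with 3.38 and 4.59 CPM with IDR-deleted KDM4A, against 11.1 and 11.2 CPM with full-length KDM4A (-1.49 ± 0.13, adjusted p = 3.46e-12) and 7.93 and 6.83 CPM with IDR-deleted KDM4B, against 17.3 and 16.6 CPM with full-length KDM4B (-1.20 ± 0.12, adjusted p = 2.08e-10). By the same rule it gave the largest KDM6B rise, with 7.11 and 6.94 CPM with IDR-deleted KDM6B, against 3.77 and 3.27 CPM with full-length KDM6B (0.99 ± 0.13, adjusted p = 4.07e-07). The groups did not overlap in any of these. Zfp936, the most abundant gene of the cluster, fell in KDM4A and KDM4B (-0.70 ± 0.04 and -0.72 ± 0.04) and rose in KDM6A (0.48 ± 0.04), but stood at -0.014 ± 0.04 (adjusted p = 0.858) in KDM6B. Intron repeats of the cluster gave 0 rises and 6 falls of 9 for KDM4A, 0 and 4 for KDM4B, 3 and 0 for KDM6A, and 0 and 6 for KDM6B.

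Cluster 7-G went the other way in the KDM4 comparisons, and cluster 17-B did so in KDM4B. In 7-G, 15 genes on chromosome 7 (29467977 to 29869175), 10 rose and 3 fell for KDM4A and 9 rose and 1 fell for KDM4B, while for KDM6A 1 rose and 4 fell and for KDM6B 1 rose and 0 fell. With ERCC scaling 7-G gave 1 rise and 10 falls in KDM4A and 6 and 2 in KDM4B, and in KDM4A its median of -0.35 was above the all-gene -0.70. Zfp383 (ENSMUSG00000099689, chromosome 7, 29607648 to 29616238, plus strand) had the largest KDM4A change, with 40.9 and 42.1 CPM with IDR-deleted KDM4A, against 14.3 and 14.6 CPM with full-length KDM4A (1.52 ± 0.082, adjusted p = 1.53e-18). It fell in KDM6A, with 9.36 and 10 CPM with IDR-deleted KDM6A, against 14.3 and 13.9 CPM with full-length KDM6A (-0.54 ± 0.085, adjusted p = 6.97e-06). Zfp568, which represses a placental transcript of Igf2 in the mouse and is the most abundant gene on chromosome 7 by CPM, rose in KDM4A, KDM4B and KDM6A by 0.31 ± 0.036, 0.27 ± 0.036 and 0.13 ± 0.036 on the log2 scale. Zfp74 and Zfp14 went against the cluster in KDM4A, at -0.45 ± 0.053 (adjusted p = 2.49e-09) and -0.72 ± 0.15 (adjusted p = 9.42e-05).

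In 17-B, 11 genes on chromosome 17 (32984470 to 33850753), 5 rose and 2 fell for KDM4A, 7 rose and 0 fell for KDM4B, 0 rose and 5 fell for KDM6A, and 0 rose and 1 fell for KDM6B; with ERCC scaling these were 0 and 8, 6 and 0, 0 and 9, and 0 and 10. The median of 17-B was 0.13 in KDM4A, where 38.0% of protein-coding genes rose and 24.1% fell, and 0.50 in KDM4B. Zfp952 rose most in the KDM4 comparisons, by 0.88 ± 0.095 and 0.75 ± 0.097. Zfp763 (ENSMUSG00000067430, chromosome 17, 33235837 to 33252376, minus strand) had the largest KDM6A fall of chromosome 17, with 13.97 and 15.4 CPM with IDR-deleted KDM6A, against 19.1 and 19.8 CPM with full-length KDM6A (-0.40 ± 0.084, adjusted p = 0.000478). Its groups did not overlap. Intron repeats of 17-B gave 4 rises and 2 falls for KDM4A, 6 and 0 for KDM4B, 0 and 4 for KDM6A, and 0 and 10 for KDM6B.

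Clusters 13-A and 17-A, which hold the most genes, were mixed. Cluster 13-A had 8 rises and 7 falls among 19 genes for KDM4A, 7 and 4 for KDM4B, 0 and 7 for KDM6A, and 0 and 1 for KDM6B. Zfp712 (ENSMUSG00000090641, chromosome 13, 67186660 to 67209234, minus strand) rose in KDM4A with 10.6 and 12.6 CPM with IDR-deleted KDM4A, against 4.31 and 3.93 CPM with full-length KDM4A (1.49 ± 0.14, adjusted p = 1.66e-11). With KDM6A it fell, with 2.30 and 2.38 CPM with IDR-deleted KDM6A, against 4.20 and 5.51 CPM with full-length KDM6A (-1.04 ± 0.16, adjusted p = 3.29e-06). A few genes along in the same cluster, Zfp953 fell in KDM4A with 16.9 and 17.3 CPM with IDR-deleted KDM4A, against 38.4 and 42.8 CPM with full-length KDM4A (-1.25 ± 0.077, adjusted p = 1.05e-16), opposite to Zfp712. Cluster 17-A gave 8 rises and 12 falls of 23 for KDM4A, 4 and 2 for KDM4B, 1 and 2 for KDM6A, and 2 and 4 for KDM6B. In cluster 2-A, 0 of 6 rose and 3 fell in KDM4A, at levels of only 0.0871 to 0.515 CPM per kb.

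**Figure D4:**
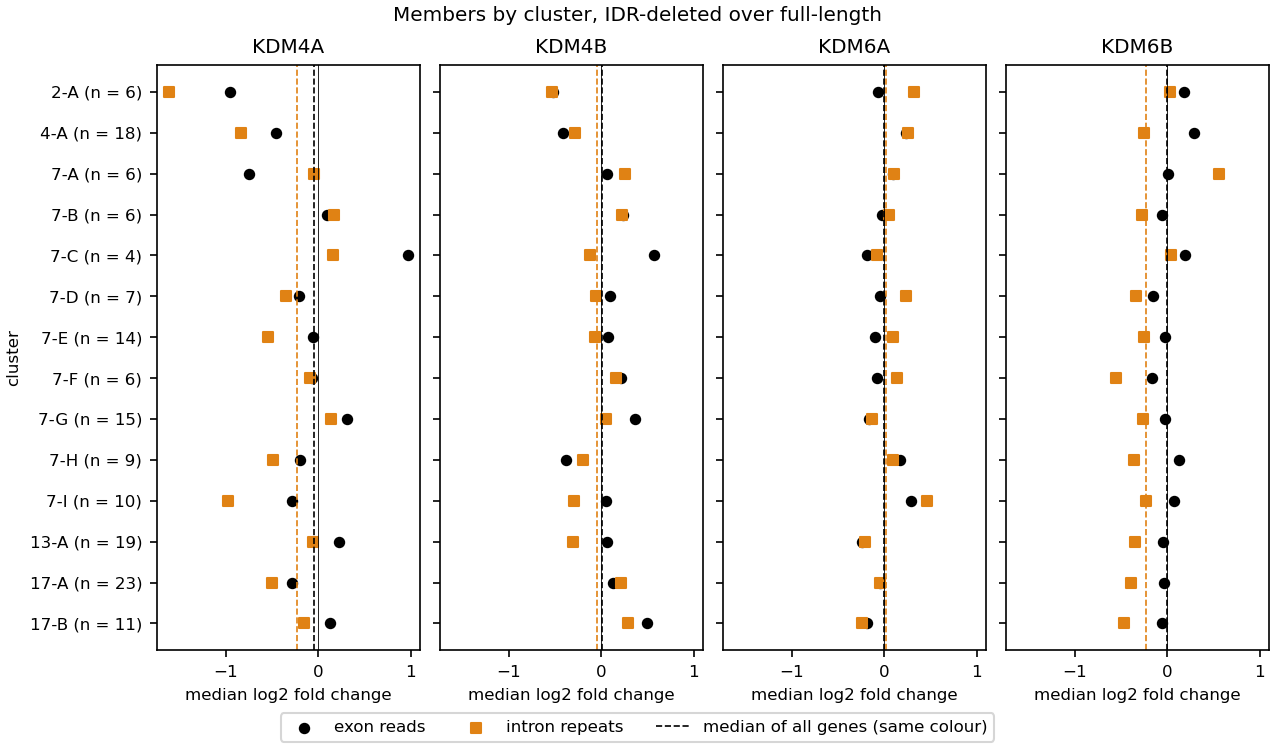
Median log2 fold change (x axis) of the zinc finger genes in each of the 14 clusters (y axis, with the number tested by exon reads), IDR-deleted over full-length, in 1 panel per demethylase; black circles are exon reads, orange squares are intron repeats, for which fewer genes could be tested, and dashed lines are the all-gene medians of each measure. Cluster 4-A lies at -0.46 and -0.84 in KDM4A by the 2 measures, and at 0.29 and -0.25 in KDM6B.

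Among genes whose higher group averaged 1 CPM or more and whose groups did not overlap, the largest fall was that of Zfp758 and the largest rise that of Zfp773. Zfp758 (ENSMUSG00000044501, chromosome 17, 22580434 to 22596262, plus strand), a KRAB gene of cluster 17-A, had 11.5 and 12.8 CPM with IDR-deleted KDM4A, against 44.4 and 49.8 CPM with full-length KDM4A, a change of -1.95 ± 0.093 (adjusted p = 5.09e-18). The KDM4B values were 26.97 and 32.97 CPM with IDR-deleted KDM4B, against 43.4 and 47.6 CPM with full-length KDM4B (-0.60 ± 0.086, adjusted p = 9.37e-07). It rose with 47.5 and 51.7 CPM with IDR-deleted KDM6A, against 38.2 and 38.4 CPM with full-length KDM6A (0.37 ± 0.085, adjusted p = 0.00163), and again with 22.6 and 23.7 CPM with IDR-deleted KDM6B, against 17.4 and 14.9 CPM with full-length KDM6B (0.52 ± 0.089, adjusted p = 5.34e-05). The libraries with IDR-deleted KDM4A and with either KDM6B protein were the low ones. By intron repeats Zfp758 fell in KDM6B, at -0.58 ± 0.15 (adjusted p = 0.00109).

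Zfp773 (ENSMUSG00000063535, chromosome 7, 7130072 to 7139754, minus strand), a KRAB gene of cluster 7-C, rose with 60.1 and 58.3 CPM with IDR-deleted KDM4A, against 18 and 16.96 CPM with full-length KDM4A (1.76 ± 0.076, adjusted p = 2.63e-21). In KDM4B it had 29.2 and 30.8 CPM with IDR-deleted KDM4B, against 6.86 and 6.58 CPM with full-length KDM4B (2.16 ± 0.082, adjusted p = 2.55e-22). Full-length KDM4B gave its lowest level, while both KDM6B groups were high. The KDM6 groups did not separate, at -0.15 ± 0.077 (adjusted p = 0.19) in KDM6A and -0.056 ± 0.072 (adjusted p = 0.662) in KDM6B. Zfp386 (ENSMUSG00000042063, chromosome 12, 116011344 to 116026980, plus strand) fell with 19.6 and 23.6 CPM with IDR-deleted KDM4A, against 54.6 and 57.1 CPM with full-length KDM4A (-1.37 ± 0.069, adjusted p = 2.2e-19) and rose with 71.2 and 75.6 CPM with IDR-deleted KDM6A, against 58.7 and 59.6 CPM with full-length KDM6A (0.31 ± 0.065, adjusted p = 0.0005).

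**Figure D5:**
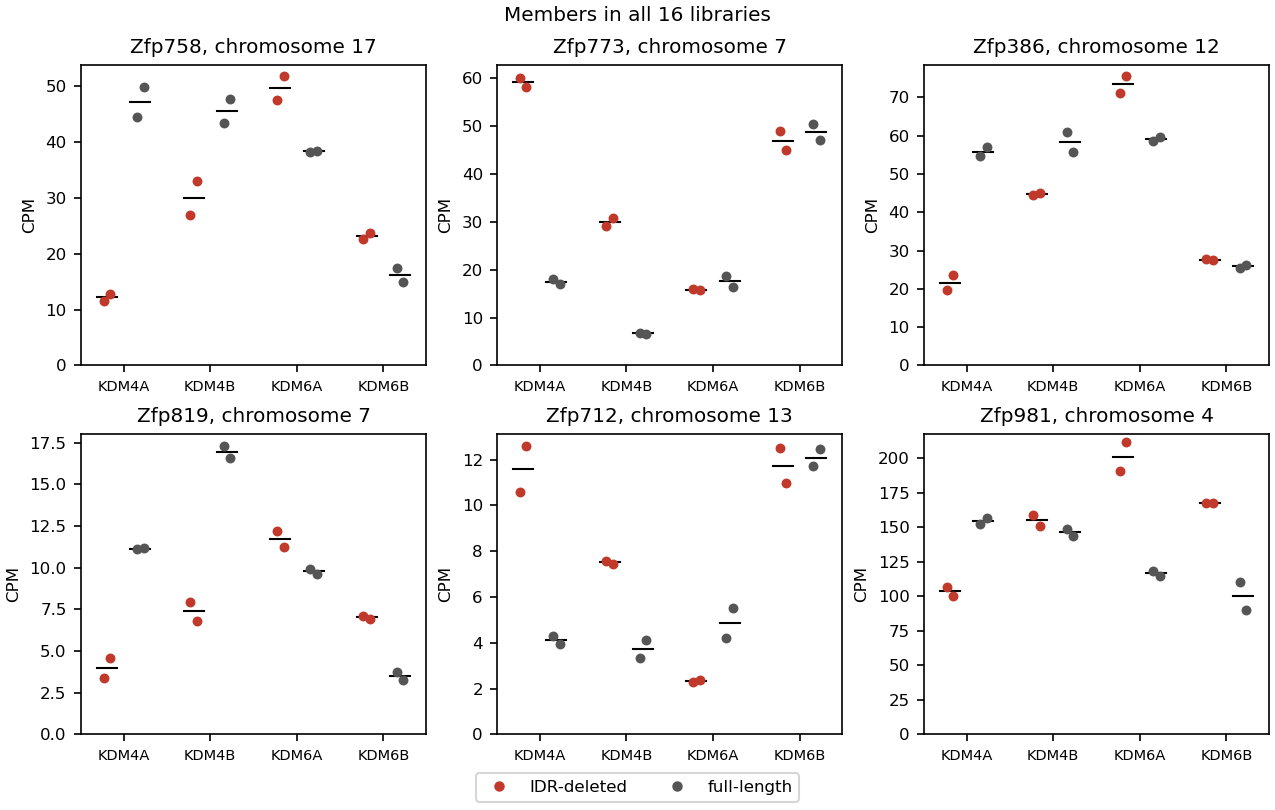
CPM (y axis) of 6 zinc finger genes in each of the 16 libraries, grouped by demethylase (x axis) with IDR-deleted (red) left of full-length (grey); points are libraries and bars the mean of 2. Zfp758 has 12.2 CPM on average with IDR-deleted KDM4A, against 47.1 CPM with full-length KDM4A, and Zfp773 has 59.1 CPM with IDR-deleted KDM4A, against 17.4 CPM with full-length KDM4A.

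By the same rule, the largest changes of the other chromosomes are given next. In KDM4A the rises were Zfp341 on chromosome 2 (1.12 ± 0.095, adjusted p = 7.43e-13), Zfp691 on chromosome 4 (0.52 ± 0.19, adjusted p = 0.0235) and Zfp677 on chromosome 17 (1.42 ± 0.31, adjusted p = 0.00016), and the fall on chromosome 2 was Zfp966 (-1.16 ± 0.44, adjusted p = 0.0249). With ERCC scaling Zfp691 stood at -0.13, not past the threshold, and intron repeats of Zfp677 fell in KDM4A and KDM4B, at -0.80 ± 0.23 and -0.67 ± 0.22. Zfp677 was low, with 2.36 and 2.88 CPM with IDR-deleted KDM4A, against 0.792 and 1.15 CPM with full-length KDM4A. In KDM4B the rises were Zfp937 on chromosome 2 (0.57 ± 0.075), Zfp69 on chromosome 4 (0.47 ± 0.13), Zfp455 on chromosome 13 (1.55 ± 0.43) and Zfp677 again (1.41 ± 0.35). The KDM4B falls were Zfp965 on chromosome 2 (-1.09 ± 0.36), Zfp618 on chromosome 4 (-0.76 ± 0.15), Zfp125 on chromosome 12 (-0.82 ± 0.11) and Zfp458 on chromosome 13 (-0.95 ± 0.15), with adjusted p from 1.22e-07 to 0.0151.

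KDM6A changes were smaller. Its rises were Zfp64 on chromosome 2 (0.30 ± 0.067, adjusted p = 0.00133), Zfp629 on chromosome 7 (0.58 ± 0.19, adjusted p = 0.029) and Zfp934 on chromosome 13 (0.37 ± 0.074, adjusted p = 0.000313), and its fall on chromosome 2 was Zfp973 (-0.89 ± 0.31, adjusted p = 0.0387). KDM6B rises were Zfp970 on chromosome 2 (0.35 ± 0.079, adjusted p = 0.0011), Zfp277 on chromosome 12 (0.18 ± 0.056, adjusted p = 0.0178) and Zfp934 on chromosome 13 (0.22 ± 0.075, adjusted p = 0.0319), which ERCC scaling put at -0.035, -0.20 and -0.16. KDM6B falls were Zfp770 on chromosome 2 (-0.28 ± 0.086), Zfp94 on chromosome 7 (-0.46 ± 0.15), Zfp410 on chromosome 12 (-0.16 ± 0.055), Zfp169 on chromosome 13 (-0.28 ± 0.069) and Zfp983 on chromosome 17 (-0.68 ± 0.23), with adjusted p from 0.00245 to 0.0294. Intron repeats of Zfp94 and Zfp983 did not pass in KDM6B and lay above 0, at 0.073 ± 0.23 and 0.18 ± 0.96.

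Genes with known roles were looked at singly. Zfp57, which keeps imprints, had 629 and 631 CPM with IDR-deleted KDM4A, against 478 and 479 CPM with full-length KDM4A, a rise of 0.40 ± 0.032 (adjusted p = 2.58e-13). It stood at -0.024 ± 0.032 (adjusted p = 0.613) in KDM4B, fell in KDM6A at -0.14 ± 0.032 (adjusted p = 0.00171) and rose by 0.15 ± 0.032 in KDM6B (adjusted p = 0.000735). Zfp462, which acts with the H3K9 methyltransferases G9a and GLP in embryonic stem cells, rose with KDM6A, with 501 and 476 CPM with IDR-deleted KDM6A, against 329 and 312 CPM with full-length KDM6A (0.61 ± 0.037, adjusted p = 1.96e-15). In KDM6B it had 312 and 314 CPM with IDR-deleted KDM6B, against 311 and 318 CPM with full-length KDM6B and did not pass (-0.0064 ± 0.036, adjusted p = 0.938). Zfp143, an activator of many housekeeping and small nuclear RNA promoters, rose by 0.72 ± 0.047 in KDM4A and 0.73 ± 0.047 in KDM4B and fell in KDM6A, at -0.36 ± 0.047. Zfp410, the activator of Chd4, fell in KDM4A, at -0.49 ± 0.055 (adjusted p = 1.03e-09).

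Of the other genes chosen for their roles, 7 rose in KDM4A: Zfp574 (1.00 ± 0.074), Zfp36 (0.81 ± 0.17), Zfp217 (0.78 ± 0.045), Zfp598, a ubiquitin ligase of collided ribosomes (0.55 ± 0.053), Zfp106, an RNA-binding protein of muscle and motor neurons (0.45 ± 0.038), Zfp69 (0.41 ± 0.13) and Zfp367 (0.15 ± 0.064). With Zfp341 (an activator of STAT3 expression, known from human), Zfp57, Zfp568 and Zfp143, that makes 11 of 15, where 24.6% of all genes and 38.0% of protein-coding genes rose. With ERCC scaling 2 of the 15 rose and 8 fell. Zfp410 and Zfp462 fell, and Zfp335 and Zfp318 did not pass. Zfp335, known from human microcephaly, fell in KDM4B (-0.32 ± 0.065, adjusted p = 0.000176), and Zfp318, needed for IgD in B cells, rose there (0.30 ± 0.047, adjusted p = 2.37e-06) and fell in KDM6A (-0.18 ± 0.047, adjusted p = 0.00471). With a KRAB motif 45 of 147 genes rose and 65 fell in KDM4A, and without it 17 of 68 rose and 30 fell.

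The deletion effects of KDM4A and KDM4B were compared directly. They differed for 88 of 221 genes, more positive in KDM4A for 20 and more negative for 68. Among all genes 15.4% were more positive and 15.6% more negative, and among protein-coding genes 25.1% and 16.3%. The 3 with the smallest p were Zfp386 (difference -0.99 ± 0.095, adjusted p = 9e-11), Zfp758 (-1.35 ± 0.13, adjusted p = 3.45e-10) and Zfp799 (-0.97 ± 0.099, adjusted p = 4.35e-10). Zfp799, of cluster 17-B, had 21.7 and 22.8 CPM with IDR-deleted KDM4A, against 29.6 and 32.1 CPM with full-length KDM4A. With KDM4B the order was opposite, with 39.1 and 38.9 CPM with IDR-deleted KDM4B, against 27.2 and 28.01 CPM with full-length KDM4B. The KDM6A and KDM6B effects differed for 47 genes, more positive in KDM6A for 18 and more negative for 29. Among all genes 11% and 10.7% were, and among protein-coding genes 11.9% and 17.2%. Zfp462 (0.62 ± 0.052, adjusted p = 1.28e-11), Zfp936 (0.49 ± 0.056, adjusted p = 1.49e-08) and Zfp383 (-0.78 ± 0.12, adjusted p = 2.49e-06) had the smallest p. Intron repeats gave 83 differences of 186 between KDM4A and KDM4B, 8 more positive and 75 more negative, where 10.6% and 24.8% of all genes were, and 82 between KDM6A and KDM6B, 79 and 3, where 30.7% and 5.71% were.

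The KDM4A and KDM4B comparisons use different libraries, so their calls could be set beside each other. Falls in both numbered 39, or 17.6% of the 221 genes, where 11.1% of all genes and 11.9% of protein-coding genes fell in both. They made up 39.8% of the KDM4A falls and 83.0% of the KDM4B falls. Over all genes these shares were 42.8% and 63.0%, and over protein-coding genes 49.2% and 57.4%, so the share of KDM4A falls was above neither. Rises in both numbered 40 (18.1% of the 221), where 12% of all genes and 19.4% of protein-coding genes rose in both. They made up 63.5% and 66.7% of the rises, against 48.7% and 64.3% over all genes and 51.0% and 71.1% over protein-coding genes. The share that rose in both was thus near that of protein-coding genes. KDM6A and KDM6B shared 11 rises (4.98% of the 221), 7 of them in cluster 4-A. In both, 1.54% of all genes and 2.38% of protein-coding genes rose. The 11 were 37.9% of the KDM6A rises and 34.4% of the KDM6B rises. Over all genes these shares were 18.5% and 15.6%, and over protein-coding genes 19.6% and 15.5%. KDM6A and KDM6B shared 1 fall (0.452% of the 221), where 0.982% of all genes and 1.38% of protein-coding genes fell in both. That was 3.03% and 5.88% of their falls, below the 11.4% and 9.15% over all genes and the 10.2% and 13.8% over protein-coding genes. No gene of the 221 rose in KDM4A and fell in KDM4B, as 1.95% of all genes and 3.32% of protein-coding genes did. Of the 221, 8 fell in KDM4A and rose in KDM4B, as 1.56% of all genes and 1.93% of protein-coding genes did.

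Falls in the KDM4 comparisons were also set beside rises in the KDM6 comparisons. Of the 29 genes that rose in KDM6A, 24 fell in KDM4A, or 10.9% of the 221. Both calls were held by 4.33% of all genes and 5.84% of protein-coding genes. They were 82.8% of the KDM6A rises and 24.5% of the KDM4A falls, against 52.2% and 16.8% over all genes. Over protein-coding genes these shares were 48.0% and 24.2%, so the share of KDM4A falls was near that background. Falls in KDM4B were shared by 16 (7.24% of the 221), where 4.14% of all genes and 5.94% of protein-coding genes had both calls. That is 55.2% of the rises and 34.0% of the falls, against 49.8% and 23.6% over all genes and 48.9% and 28.7% over protein-coding genes. Of the 32 that rose in KDM6B, 20 fell in KDM4A (9.05% of the 221, where 2.36% of all genes had both calls), or 62.5% of the rises and 20.4% of the falls, against 23.8% and 9.11% over all genes. A KDM4B fall was shared by 17 (7.69% of the 221, where 2.7% of all genes had both calls), or 53.1% and 36.2%, against 27.3% and 15.4% over all genes. Both KDM4 falls and a KDM6B rise were passed by 14 of the 221 genes, 10 of them in cluster 4-A, where 1.51% of all genes passed all 3.

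Genes of the TRIM28 corepressor, through which KRAB proteins act, did not move in 1 direction. Of 12, 6 rose and 5 fell for KDM4A, 3 rose and 7 fell for KDM4B, 4 rose and 2 fell for KDM6A, and 2 rose and 1 fell for KDM6B. Trim28 itself had 539.9 and 542 CPM with IDR-deleted KDM4A, against 563 and 552 CPM with full-length KDM4A (-0.043 ± 0.034, adjusted p = 0.301), and 456 and 429.6 CPM with IDR-deleted KDM4B, against 560.3 and 538 CPM with full-length KDM4B (-0.31 ± 0.034, adjusted p = 1.01e-09). Setdb1 had 205 and 187 CPM with IDR-deleted KDM4A, against 218 and 221 CPM with full-length KDM4A (-0.17 ± 0.041, adjusted p = 0.000853), and 183 and 178 CPM with IDR-deleted KDM4B, against 225 and 227 CPM with full-length KDM4B (-0.32 ± 0.041, adjusted p = 4.1e-08). Smarcad1, a remodeler that binds TRIM28, had 431 and 464 CPM with IDR-deleted KDM4B, against 811 and 831 CPM with full-length KDM4B (-0.87 ± 0.041, adjusted p = 6.21e-18). Their summed level was 2783 and 2828 CPM with IDR-deleted KDM4A, against 2897 and 2860 CPM with full-length KDM4A, and 2496 and 2520 CPM with IDR-deleted KDM4B, against 3416 and 3442 CPM with full-length KDM4B.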

How the data were processed

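Chromatin-associated RNA was sequenced in 16 libraries, 2 for each of 8 groups. Both deposited tables hold raw read counts, per gene and per repeat copy, made by the authors with featureCounts 2.0.3 in paired mode with a mapping quality of at least 30 and no strand option, per the file headers. The annotation was GRCm39 with spike-ins; HISAT2 is named in the submitters' processing notes. Without strand, reads of a gene and of an overlapping one cannot be told apart, and 87 of the 225 genes overlap another gene. The 92 ERCC and 2 kit control rows were left out of library sizes (ERCC reads were 0.582% to 1.55% of gene reads). Symbols were matched for 51948 of 56941 gene rows. Counts were fitted with edgeR 4.0.16 (R 4.3.3): filterByExpr with a minimum count of 10, TMM, a robust quasi-likelihood fit of 8 group means over all 16 libraries with 8 residual degrees of freedom, and Benjamini-Hochberg adjustment over all 31057 genes tested, threshold 0.05. Intron repeats are counts of repeat copies lying whole within 1 gene and touching no exon, fitted with the same library sizes, a measure added after seeing the data. KRAB and C2H2 motifs were searched in translated GENCODE M21 coding sequences.

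The members and lists were chosen with earlier results of these data known. Singly named genes are, per comparison and chromosome, those with the largest rise and fall past the threshold whose higher group averaged 1 CPM or more and whose groups did not overlap, genes with known roles, the TRIM28 corepressor, the 3 smallest p of each difference between deletion effects, and the most abundant gene of each chromosome; others (such as genes of clusters 4-A, 7-G, 7-H and 17-B) were named after their values were seen. On simulated counts of 30065 genes for the KDM4A comparison, 39 of 57 genes changed 1.5-fold, 69 of 72 changed 2-fold and 71 of 71 changed 4-fold were recovered, with 8 calls among 29865 unchanged genes. Only these few genes were changed, in either direction, and the simulated spread depended on the level of a gene alone. In the data 24.6% of all genes rose and 25.9% fell in KDM4A, so the simulation cannot show how many real calls are false. Alternatives were DESeq2 1.42.0, ERCC and median-ratio scaling, other filters, a fit of 4 libraries, a replicate block, subsets of the genes and leaving out each library.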

Additional observations from a re-analysis of the deposited data

Results flagged for a closer look

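The deletion effect differed between KDM4A and KDM4B for 88 of the 221 tested zinc finger genes, and between KDM6A and KDM6B for 47, each by a test of the difference itself (edgeR, adjusted p under 0.05). The genes with the smallest p are listed for that difference. Between KDM4A and KDM4B it was -0.99 on the log2 scale for Zfp386, -1.35 for Zfp758 and -0.97 for Zfp799. Zfp386 and Zfp758 fell in both comparisons, further in KDM4A, whereas Zfp799 fell in KDM4A and rose in KDM4B. Between KDM6A and KDM6B it was 0.62 for Zfp462, 0.49 for Zfp936 and -0.78 for Zfp383. Zfp462 and Zfp936 rose in KDM6A and did not pass in KDM6B, and Zfp383 fell in KDM6A and rose in KDM6B (0.23 ± 0.078, adjusted p = 0.0268). Groups of 2 libraries are too small for a check of single libraries that stand apart.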

How the results depend on the processing

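Values here are percentages of the genes tested. ERCC scaling gave 5.43% higher and 77.4% lower for KDM4A, 15.4% and 38.5% for KDM4B, 2.26% and 45.7% for KDM6A, 1.81% and 64.7% for KDM6B, 67.0% differing between KDM4A and KDM4B, and in cluster 4-A 16.7% higher for KDM6A and 5.56% for KDM6B. Intron repeats gave 14.5% higher in KDM4A, 5.91% lower in KDM6A, 0% higher and 54.3% lower in KDM6B, 44.1% differing between KDM6A and KDM6B, and 0% higher in KDM6B in cluster 4-A. Without cluster 4-A, 8.87% were higher in KDM6B. In cluster 4-A the share higher in KDM6A, 38.9%, was 61.1% in a fit of 4 libraries and 72.2% with no filter. The cause of these differences was not tested.

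With the replicate block, 61.1% of cluster 4-A were higher in KDM6A, and no other share moved by over 1.5 times. Replicate numbers were not taken to pair the libraries, since not all 4 correlations exceeded 0.1: deviations of same-numbered libraries correlated at 0.12 for KDM4A, 0.13 for KDM4B, 0.14 for KDM6A and -0.0026 for KDM6B.

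Leaving out 1 library at a time gave 20.8% to 25.8% higher and 34.4% to 43.4% lower for KDM4A, 22.2% to 27.1% and 17.2% to 19% for KDM4B, 8.14% to 9.50% and 6.33% to 12.2% for KDM6A, and 8.60% to 10.9% and 2.71% to 5.43% for KDM6B. It gave 92.8% to 95.5% differing among the 8 groups, 33.9% to 39.8% between KDM4A and KDM4B, and 15.8% to 22.2% between KDM6A and KDM6B. In cluster 4-A it gave 77.8% to 94.4% lower for KDM4A, 66.7% to 72.2% lower for KDM4B, 33.3% to 38.9% higher for KDM6A and 44.4% to 77.8% higher for KDM6B. Counts moved by over 1.5 times without full-length KDM6A replicate 1 (14 lower) or 2 (18 higher), and in KDM6B without IDR-deleted replicate 1 (21 higher, 6 lower) or 2 (21 and 8) or full-length replicate 1 (8 lower) or 2 (19 higher). A lone library left in a group is assumed to vary like the others.

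Under the alternatives 241 chromosome medians were within the replicate spread of the main value and 119 moved, among them 24 of 24 with ERCC scaling and 23 of 24 by intron repeats. Of 600 values of singly named genes under alternatives, 529 kept direction and call, 58 missed the threshold and 13 changed sign. With ERCC scaling these were Zfp691 in KDM4A (-0.13) and, in KDM6B, Zfp970 (-0.035), Zfp277 (-0.20) and Zfp934 (-0.16). By intron repeats they were Zfp677 in KDM4A (-0.80) and KDM4B (-0.67) and, in KDM6B, Zfp981 (-0.010), Zfp819 (-0.15), Zfp94 (0.073), Zfp277 (-0.57), Zfp934 (-0.097), Zfp758 (-0.58) and Zfp983 (0.18).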
